A study of Homo sapiens with 24 samples.

Results

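Collagens and laminins are chains of the extracellular matrix on which an epithelium rests, and integrins are the receptors by which its cells hold on to that matrix. Members were protein-coding genes of the dex and EtOH count table with a GENCODE symbol made of COL, a number and A, of LAMA, LAMB or LAMC and a digit, of ITGA, or of ITGB and a digit. Counts of all transcripts of a gene were added up. The rule gave 86 of the 33127 genes in the table. They comprised 44 collagens, 12 laminins, 18 integrin α chains, 8 integrin β chains and 4 genes whose symbols fit although their products are other proteins (COL4A3BP, ITGB1BP1, ITGB1BP2 and ITGB3BP). The rule itself uses symbols and no measured value.

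RNA came from A549, an established human line from a lung adenocarcinoma, exposed to 100 nM dexamethasone (dex), a synthetic glucocorticoid that activates the glucocorticoid receptor, or to the vehicle ethanol (EtOH, 0.02% by volume). Both treatments were sampled every 2 h from 1 to 11 h with 2 libraries at each time, which makes 24 libraries in 12 groups. The study's methods state triplicates, and the treatment text of the labels gives 1 h throughout, so replicate numbers and durations were taken from their own labels. The labels call the libraries biological replicates without saying whether they came from separate cultures, and p-values measure only the spread between these libraries. The total count of an EtOH library lay between 7813353 and 13619043, with a median of 10112359.5. That of a dex library lay between 6708864 and 13748598, with a median of 9975978.5.

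Levels are given as counts scaled to a common library size, with TMM factors over the 24 libraries (normalised CPM), and levels are compared between genes only after division by transcript length (normalised CPM per kilobase). Differences are log2 fold changes of dex over EtOH with their standard errors (SE). Each time point was tested with edgeR (quasi-likelihood F-test), and p-values were adjusted by Benjamini and Hochberg's method over all 15337 genes tested. A gene was called where the adjusted p was at most 0.1. In bulk RNA, a transcript in fewer cells and less of it per cell cannot be told apart.

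The labelled cell type was checked on marker genes. KRT18, a keratin of simple epithelia, averaged 2238.3 normalised CPM in the EtOH libraries, and all 6 epithelial markers were detected. The 5 fibroblast markers summed to between 2.1 and 6.09 normalised CPM per library, with THY1 as the most abundant at 2.06 CPM with EtOH and DCN, a defining marker, at 0.0902 CPM. Of the endothelial markers, 2 of 3 were in the table and summed to at most 1.06 CPM, led by CDH5 at 0.328 CPM. The 3 leukocyte markers summed to at most 3.6 CPM, led by CD14 at 1.97 CPM, with CD3E at 0 counts in every library. The epithelial sum moved with treatment. From 3 to 11 h it lay between 3898.1 and 6289.8 CPM in the 10 EtOH libraries and between 7312.7 and 12364.0 CPM in the 10 dex libraries. Keratins KRT7, KRT8 and KRT18 were called higher with dex at 5 times each and the cadherin CDH1 at 2 times, whereas EPCAM was called lower at 3 times and KRT19 at 2 times. The part of this shift in the results below was not tested. As a check of the treatment, the glucocorticoid targets FKBP5, TSC22D3 and PER1 stood at log2 fold changes of 3.38 ± 0.11, 4.46 ± 0.13 and 3.88 ± 0.15 (SE) at 3 h.

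Collagens are helices of α chains. Types I, III and V form fibrils, type IV forms the network of the basement membrane, and type VII anchors that membrane to the tissue below. Laminins are trimers of an α, a β and a γ chain and make the second network of the basement membrane. Integrins pair an α with a β chain. Pairs with β1 bind collagens, laminins or fibronectin according to the α chain, α6β4 binds laminin in the hemidesmosomes of epithelia, and αV pairs mostly bind ligands with an RGD sequence. Glucocorticoids are known to lower fibrillar collagen synthesis in connective tissue and to promote adhesion and barrier functions in several epithelia.

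In the EtOH libraries the transcripts of a few chains dominated each class. Among the 12 EtOH libraries, ITGB1 averaged 900.1 ± 40.6 (SD, n = 12) normalised CPM per kilobase and made up 89.5% of the summed β chain level, followed by ITGB5 at 85.7 ± 7.73 and ITGB4 at 12.6 ± 2.52. The ranges of these β chains did not overlap between neighbours in that order. Among α chains, the αV chain ITGAV led with 192.6 ± 15.4, ahead of ITGA3 with 93.1 ± 9.13 and ITGA6 with 22.3 ± 1.86 CPM per kilobase. Both ITGA3 and ITGA6 make laminin receptors. LAMB1 stood at 112.8 ± 7.66, LAMC1 at 62.9 ± 2.81 and LAMA5 at 39.2 ± 5.01 CPM per kilobase, and these are the chains of laminin-511. Among collagens, COL5A2 stood at 87.6 ± 6.11, COL5A1 at 41.7 ± 5.71 and COL4A1 at 41.3 ± 6.0, where the last pair did not differ beyond their spread. The main fibrillar chain COL1A1 was lower, at 7.13 ± 1.72 CPM per kilobase, and its partner COL1A2 had 1 count over all 24 libraries.

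Enough counts to be tested were found for 60 members, namely 25 collagens, 11 laminins, 14 integrin α chains, 6 integrin β chains and the 4 other products. The 26 untested members had at most 11 counts in any library, and 4 of them (COL19A1, COL23A1, COL25A1 and COL6A5) had none in any. At 1 h, 0 members were called, against 1.06% of all genes tested (0.639% higher, 0.417% lower). DESeq2 also called 0 of them, and 3 members had an unadjusted edgeR p under 0.05 (5.0% of the 60, against 6.93% of all genes).

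From 3 to 9 h members were called in both directions. At 3 h, 18 members were called, 15 higher and 3 lower, which is 30.0% of those tested against 14.1% of all genes (8.42% higher, 5.65% lower). The numbers were 23 (15 higher, 8 lower) at 5 h, or 38.3%, against 25.0% of all genes (12.4% higher, 12.6% lower), and 27 of the 60 (18 higher, 9 lower) at 7 h, against 28.2% (14.7% higher, 13.5% lower). At 9 h, 21 members were called (11 higher, 10 lower), or 35.0%, against 19.8% of all genes (10.8% higher, 8.95% lower). At 11 h, 7 were called, or 11.7%, all of them higher, against 9.12% of all genes (5.8% higher, 3.33% lower). By edgeR 0 members were called lower at 11 h, while 4 lower ones had an unadjusted p under 0.05 (6.67% of the 60, against 6.96% of all genes). These counts moved together with those of all genes. At 3 h DESeq2 called 5 of the 50 members to which it gave an adjusted p, against 8.72% of all genes, which is near that background. The count at 3 h was also smaller without EtOH replicate 1 and without dex replicate 1, as was the share of all genes. At 9 h it was 11 of 58 by DESeq2 (19%, against 12.2% of all genes). It was smaller at 9 h without either dex replicate too, as was the share of all genes. At 11 h it was 28 without dex replicate 1 (46.7%, against 32.5% of all genes), 19 without dex replicate 2 (31.7%, against 18.5%) and 4 without either EtOH library (6.67%, against 4.69% and 4.89%). The dex libraries at 11 h were the least alike of all pairs, and the biological coefficient of variation there was 12.7% against 6.49% at 7 h.

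**Figure D1:**
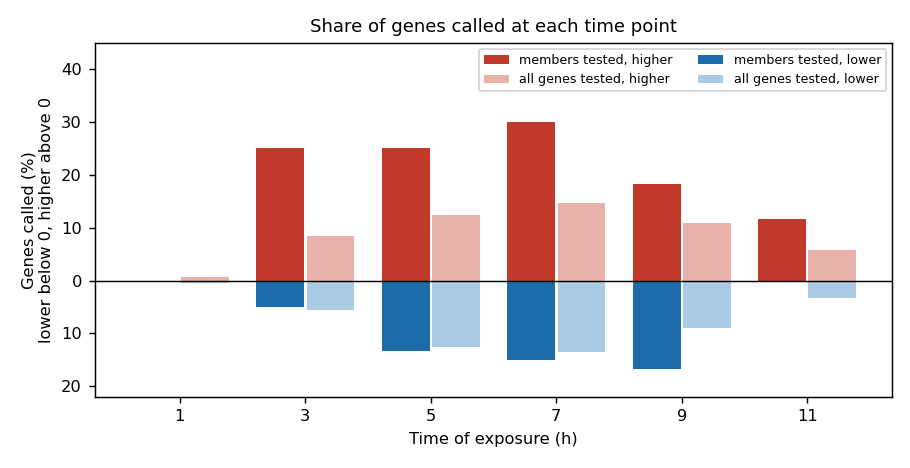
Share of genes called higher (upward bars) or lower (downward bars) with dex at each time of exposure, for the 60 members tested (dark) and all 15337 genes tested (light), in percent. Higher calls among members reached 30.0% at 7 h, where 14.7% of all genes were called higher, while lower calls among members reached 16.7% at 9 h, where 8.95% of all genes were called lower.

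Calls at 2 or more consecutive times in the same direction were reached by 15 members for higher levels, 25.0% of those tested against 10.7% of all genes, and by 9 members for lower levels, 15.0% against 9.46%. Laminins made up 5 of the 15 (of 11 tested), collagens 4 (of 25, all of type IV), integrin α chains 3 (of 14), β chains 1 (of 6) and the other products 2 (of 4). Collagens made up 5 of the 9 lower members, which were 4 by DESeq2, 4 without the first and 5 without the second dex library of each time. A further 12 of the 60 tested were called at 1 time only (against 20.1% of all genes), and 21 (35.0%, against 55.6% of all genes) were called at no time, among them the abundant COL5A2, ITGAV and ITGB1. The median log2 fold change of the tested members at 5 h was 0.55 for laminins, 0.15 for β chains, -0.029 for collagens and -0.19 for α chains, against 0.01 for all genes. From 3 to 11 h the median was above 0 at every time for laminins (0.16 to 0.55) and β chains (0.15 to 0.20). It was above 0 for α chains at the other 4 of these times (0.018 to 0.11), and for collagens it ran from 0.16 at 3 h to -0.17 at 9 h.

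**Figure D2:**
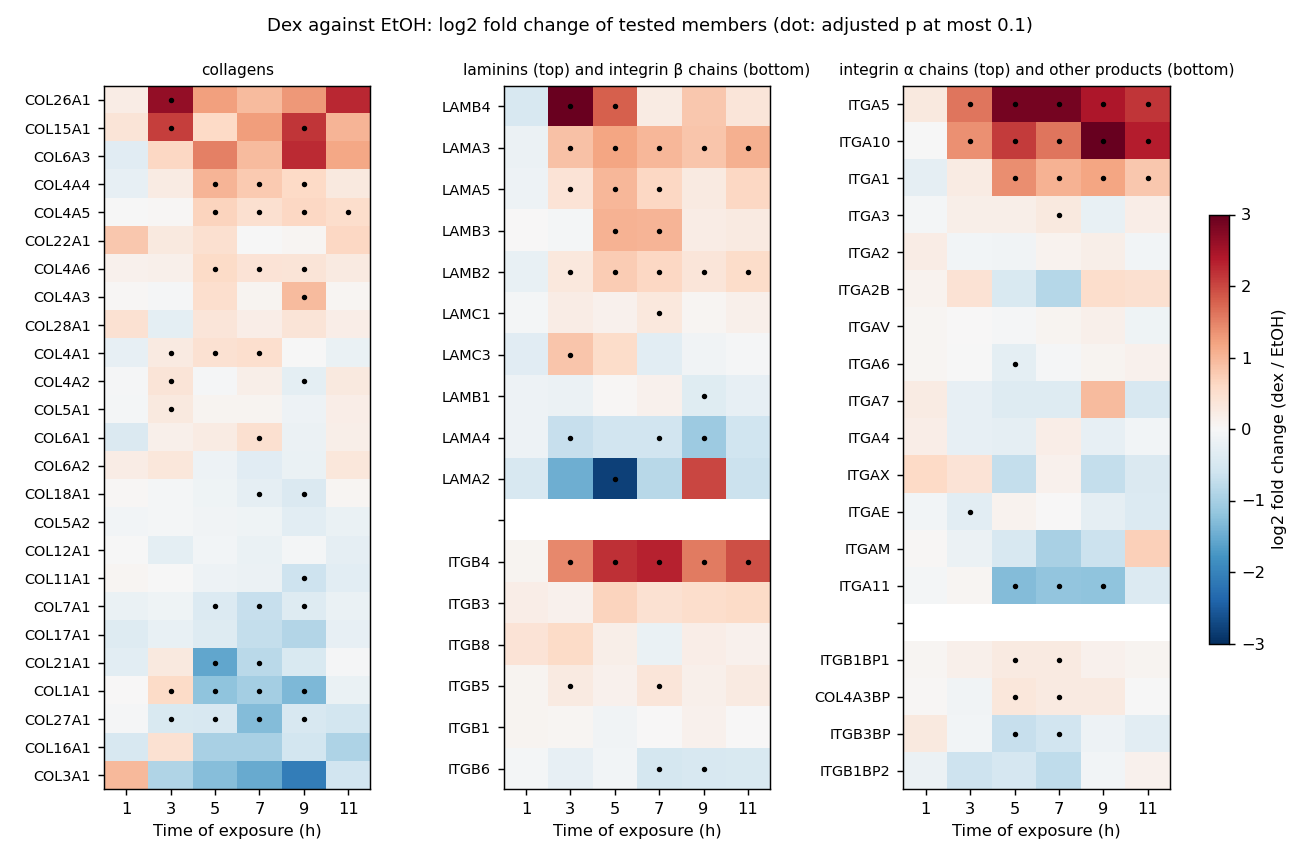
Log2 fold change of dex over EtOH for members tested (rows) at each time of exposure in hours (columns), on a colour scale that ends at -3 and 3, with a dot where the adjusted p was at most 0.1. ITGA5, ITGB4, LAMA3 and LAMB2 carry dots from 3 to 11 h on the higher side, COL27A1 carries dots from 3 to 9 h on the lower side, and the 1 h column carries none.

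Among integrin α chains, ITGA5 rose at every time from 3 h on. It encodes the α5 chain of the classical fibronectin receptor α5β1 and lies at chr12:54395261-54419460 on the minus strand (GRCh38). With EtOH it lay between 32.3 and 46.1 normalised CPM in all 12 libraries, with a median of 37.8. With dex the replicates stood at 46.8 and 51.2 CPM at 1 h, at 117.4 and 105.8 CPM at 3 h, and at 300.4 and 268.8 CPM at 5 h. They were 256.8 and 237.1 CPM at 7 h, 207.9 and 236.8 CPM at 9 h, and 155.0 and 183.9 CPM at 11 h. Both dex libraries lay above both EtOH libraries at every time, and from 3 h on every dex library lay above the full EtOH range. The log2 fold change was 1.60 ± 0.11 at 3 h, 2.86 ± 0.11 (adjusted p = 2.23e-24, edgeR) at 5 h, 2.86 ± 0.09 at 7 h and 2.14 ± 0.15 (adjusted p = 2.47e-06, edgeR) at 11 h. At 5 h this is a 7.28-fold difference. The effect at 11 h was smaller than that at 5 h by a tested difference of -0.74 ± 0.17 on the log2 scale (adjusted p = 0.0174, edgeR).

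The collagen receptor chains went different ways. ITGA1 (α1, chr5:52787896-52959210, plus strand) pairs with β1 as a receptor for collagen IV among others. At 3 h its dex replicates had 18.5 and 17.9 CPM against 14.9 and 15.8 CPM with EtOH, which was not called (log2 fold change 0.24 ± 0.15). At 5 h they had 36.5 and 30.6 CPM against 13.0 and 12.4 CPM, with no overlap, a log2 fold change of 1.40 ± 0.15 (adjusted p = 3.44e-10, edgeR). It was called higher at 7, 9 and 11 h as well, with 0.81 ± 0.20 at the last. PELO, a gene of translation quality control, shares exonic bases with ITGA1 on the same strand and had 6905 counts in all, so reads of both can be mixed.

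ITGA11 (α11, chr15:68296533-68432162, minus strand), a receptor chain for fibrillar collagens, fell. Its dex replicates had 4.81 and 4.93 CPM at 5 h against 13.1 and 10.8 CPM with EtOH, 4.4 and 5.15 CPM at 7 h against 9.73 and 12 CPM, and 5.84 and 5.75 CPM at 9 h against 15.2 and 12 CPM. All dex values lay below all EtOH values at these 3 times. The log2 fold changes were -1.29 ± 0.22, -1.19 ± 0.21 and -1.21 ± 0.21 (adjusted p = 9.97e-06, 3.76e-05 and 0.00137, edgeR). At 11 h the value was -0.41 ± 0.22, which was not called. The collagen receptor chain ITGA2 was called at no time, with log2 fold changes between -0.10 at 5 h and 0.22 at 1 h.

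ITGA10 (α10, chr1:145891208-145910189, minus strand), known as a collagen receptor chain of cartilage, was called higher from 3 to 11 h at low counts. At 9 h its dex libraries held 37 and 52 reads and its EtOH libraries 8 and 1, and at 11 h the counts were 65 and 43 against 4 and 12. Its log2 fold change was 2.09 ± 0.40 at 5 h (adjusted p = 7.57e-05, edgeR) and 2.36 ± 0.43 at 11 h (adjusted p = 0.00423, edgeR). The dex libraries lay above the EtOH libraries at each of the 5 called times, and at 1 h the groups overlapped. The abundant laminin receptor chain ITGA3 was called higher only at 7 h (0.29 ± 0.07) and ITGA6 was called lower only at 5 h (-0.29 ± 0.11). The call of ITGA3 was lost without either dex library at 7 h and in the fit over 24 libraries (adjusted p = 0.423, edgeR), and that of ITGA6 by DESeq2 and without dex replicate 2 or EtOH replicate 2 at 5 h.

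Among β chains, ITGB4 rose at every time from 3 h on. It encodes the β4 chain of the hemidesmosome and lies at chr17:75721328-75757818 on the plus strand. With EtOH it ranged from 28.8 to 47.0 CPM over 12 libraries, with a median of 33.3. With dex it had 36.8 and 41.8 CPM at 1 h, 92.7 and 72.6 CPM at 3 h, 167.8 and 157.4 CPM at 5 h, and 98.9 and 154.2 CPM at 11 h. From 3 h on all dex libraries lay above the highest EtOH library. The log2 fold change was 2.20 ± 0.11 at 5 h (adjusted p = 3.5e-20, edgeR), 2.32 ± 0.09 at 7 h, 1.55 ± 0.13 at 9 h and 1.94 ± 0.20 at 11 h (adjusted p = 4.93e-05, edgeR). The partner chain ITGA6 had -0.03 ± 0.09 at 7 h, which was not called, and its level with EtOH (76.8 CPM on average, 22.3 per kilobase) was above that of ITGB4 (12.6 per kilobase). The difference between both chains in response was not tested. The 4 most counted ITGB4 transcripts held 4075, 4012, 3899 and 3818 reads, so their counts are nearly equal although the transcripts share most of their sequence, and transcripts were not compared.

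The common β1 chain ITGB1 did not pass the test at any time. Its log2 fold changes lay between -0.11 ± 0.11 at 5 h and 0.13 ± 0.12 at 9 h, and its dex libraries at 7 h had 2232.6 and 2266.2 CPM against 2164.4 and 2337.4 CPM with EtOH. ITGAV was called at no time either, with values between -0.12 and 0.15. Of the β chains that pair with αV, ITGB5 was called higher at 3 and 7 h (0.37 ± 0.08 at 7 h), ITGB6 was called lower at 7 and 9 h, and ITGB3 and ITGB8 were called at no time. ITGB6, a chain of the αVβ6 receptor that releases active TGF-β from its latent form, had 18.2 and 15.4 CPM with dex at 7 h against 26.8 and 22.3 CPM with EtOH, a log2 fold change of -0.52 ± 0.14 (adjusted p = 0.00418, edgeR). That call was lost without dex replicate 2.

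**Figure D3:**
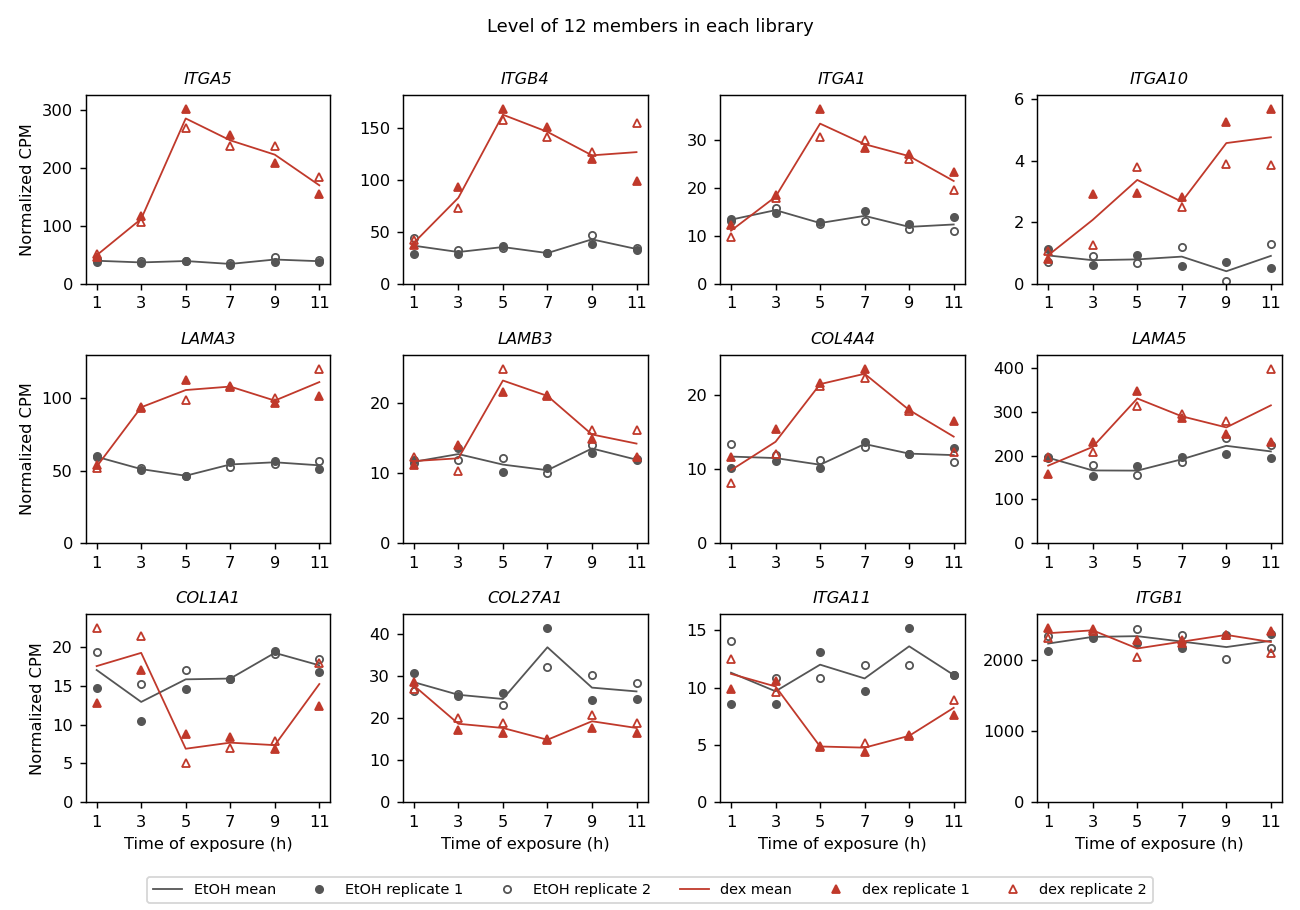
Normalised CPM (vertical axes, from 0) of 12 members in each library against time of exposure in hours, with EtOH in grey circles and dex in red triangles, filled for replicate 1 and open for replicate 2, and lines through the means of 2 libraries. ITGA5 and ITGB4 separate from 3 h and LAMA3 with them, COL4A4 lies above EtOH from 5 to 9 h, COL1A1 and ITGA11 lie below it at those times, and ITGB1 overlaps with EtOH at most times.

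Of 11 laminins tested, 5 were called higher at consecutive times and 10 (90.9%) were called at 1 time or more, against 44.4% of all genes. LAMA3, at chr18:23689443-23956222 on the plus strand, and LAMB3, at chr1:209614870-209652466 on the minus strand, encode the α3 and β3 chains of laminin-332, the anchoring laminin of epithelia. LAMA3 had 94.2 and 93.3 CPM with dex at 3 h against 50.2 and 51.9 CPM with EtOH, 112.6 and 98.8 CPM at 5 h against 46.5 and 46.5 CPM, and 101.8 and 120.5 CPM at 11 h against 50.9 and 56.4 CPM. From 3 h on both dex libraries lay above both EtOH libraries. Its log2 fold change was 0.88 ± 0.11 at 3 h, 1.18 ± 0.11 at 5 h (adjusted p = 1.38e-11, edgeR) and 1.07 ± 0.15 at 11 h (adjusted p = 0.000571, edgeR). LAMB3 took another course. Its dex libraries had 14.0 and 10.3 CPM at 3 h against 13.5 and 11.9 CPM with EtOH, then 21.5 and 24.9 CPM at 5 h against 10.1 and 12.2 CPM, and 21.0 and 21.1 CPM at 7 h against 10.7 and 10.0 CPM. At 3 h the groups overlapped and at 5 and 7 h they did not, with log2 fold changes of 1.04 ± 0.17 and 1.03 ± 0.15 (adjusted p = 2.79e-06 and 1.28e-06, edgeR). At 9 h the value was 0.23 ± 0.17, which was not called, and the effect at 11 h was below that at 5 h by -0.79 ± 0.24 (adjusted p = 0.0946, edgeR).

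Promoter sequences were available in RefSeq (GRCh38.p14) for 62 of the 86 members, as 83 promoters of 250 bases before the start. The pattern of the glucocorticoid response element (GNACA and TGTNC with 3 bases of any kind between them) was found on either strand in 0 of these 83 and in 0.327% of 35116 promoters of all genes. TGANTCA, a pattern of AP-1 sites that reads the same on both strands, was found in 3 of the 83 (3.61%, against 6.57% of all promoters), those of COL10A1, LAMA3 and LAMB3. The 3 stretches of the laminin promoters are shown because both genes were called higher, with the match in capitals and 10 bases on either side, read on the strand of the gene.
LAMA3, 125 bases before the start, chr18:23872885-23872911, plus strand: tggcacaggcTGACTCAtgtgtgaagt
LAMA3, 69 bases before the start, chr18:23872941-23872967, plus strand: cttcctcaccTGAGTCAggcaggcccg
LAMB3, 67 bases before the start, chr1:209651425-209651451, minus strand: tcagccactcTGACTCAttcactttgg
In GENCODE 29 both LAMA3 stretches lie in the first exon, in the 5′ UTR, of 1 of the 4 LAMA3 transcripts that span them and in introns of the others, and the LAMB3 stretch lies in introns of 2 LAMB3 transcripts. The start of LAMB3 used there is 1 of 3 in RefSeq. All 3 stretches lie inside the spans given above for their genes, so the starts used are internal ones. The LAMA3 counts were summed over 10 transcripts, the most counted of which held 31.7%. Which of the counted transcripts begin at these starts was not examined. At least 2 matches, as in LAMA3 and in the untested COL10A1, are found in 0.402% of all promoters. A match describes letters in the window and does not show that a factor binds there.

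Among the chains of other laminins, LAMA5 (α5, chr20:62307955-62367312, minus strand), the α chain of laminin-511, had 347.9 and 313.1 CPM with dex at 5 h against 175.2 and 156.0 CPM with EtOH. The groups did not overlap, and the log2 fold change was 1.00 ± 0.10 (adjusted p = 1.85e-10, edgeR), after 0.41 ± 0.10 at 3 h and before 0.61 ± 0.07 at 7 h. At 11 h its dex libraries were far apart, with 230.8 and 398.8 CPM against 195.3 and 223.7 CPM, and it was not called there. The partner LAMB1 was called lower at 9 h only (-0.36 ± 0.11, adjusted p = 0.045, edgeR) and the partner LAMC1 higher at 7 h only (0.32 ± 0.07, adjusted p = 0.00112, edgeR). The call of LAMB1 was lost without either dex library at 9 h, and that of LAMC1 without dex replicate 2 at 7 h. LAMB2 (β2, chr3:49121114-49133118, minus strand), which can take the place of β1 in laminin-521, was called higher from 3 to 11 h, with its largest value of 0.77 ± 0.12 at 5 h (80.1 and 84.0 CPM with dex against 44.6 and 51.6 CPM with EtOH). Exonic bases of LAMA5 overlap ADRM1 and those of LAMB1 overlap DLD, both on the opposite strand, and use of strand in counting is not given in the sources used here.

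LAMA4 (α4, chr6:112108760-112254939, minus strand), a chain known mostly from vessels, muscle and fat, was the only laminin called lower at 2 consecutive times. At 9 h it had 4.28 and 3.81 CPM with dex against 8.82 and 8.6 CPM with EtOH, a log2 fold change of -1.10 ± 0.23 (adjusted p = 0.00518, edgeR), and it was called lower at 3 h (-0.69 ± 0.24) and 7 h (-0.58 ± 0.22) too. The call at 9 h was lost without dex replicate 2. LAMB4 (chr7:108023548-108130356, minus strand) was called higher at 3 and 5 h on very few reads, with 10 and 14 counts against 1 and 2 at 3 h (adjusted p = 0.00655, edgeR) and 8 and 10 counts against 4 and 2 at 5 h (adjusted p = 0.0571, edgeR). LAMC3 was called higher at 3 h alone, and LAMA2, with 0 and 1 counts against 5 and 5, lower at 5 h alone. The summed laminin level did not keep 1 order over time and was not tested. At 1 h, with 0 laminins called, it was 1117.5 and 1222.4 CPM with dex against 1227.8 and 1310.7 CPM with EtOH, lower without overlap. It was 1683.0 and 1438.6 CPM with dex at 5 h against 1273.2 and 1213.2 CPM with EtOH, and 1457.2 and 1492.7 CPM at 7 h against 1148.1 and 1185.4 CPM, higher without overlap at both times. At 3, 9 and 11 h the groups overlapped, with 1291.4 and 1346.5 CPM with dex at 9 h against 1369.5 and 1321.9 CPM.

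The collagens called higher at consecutive times were all chains of collagen IV, which are encoded in head-to-head pairs. COL4A4 (chr2:227002711-227164453, minus strand) had 21.6 and 21.3 CPM with dex at 5 h against 10.1 and 11.2 CPM with EtOH, a log2 fold change of 1.01 ± 0.17 (adjusted p = 5.97e-06, edgeR), and was called at 7 and 9 h too. Its neighbour COL4A3, whose RefSeq start lies 418 bases away, was called at 9 h only, with 7.7 and 5.9 CPM against 3.74 and 3.2 CPM (0.95 ± 0.26, adjusted p = 0.0261, edgeR). The call of COL4A3 was lost by DESeq2 and without dex replicate 1. COL4A5 (chrX:108439844-108697545, plus strand) was called from 5 to 11 h, with 65.3 and 57.0 CPM against 39.2 and 38.2 CPM at 5 h (0.66 ± 0.12, adjusted p = 3.05e-05, edgeR). Its neighbour COL4A6 (chrX:108155607-108439497, minus strand) was called from 5 to 9 h, with 61.0 and 56.0 CPM against 37.6 and 40.4 CPM at 5 h (0.58 ± 0.12, adjusted p = 0.0002, edgeR). In each of these pairs of values both dex libraries lay above both EtOH libraries.

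The abundant pair COL4A1 and COL4A2, whose RefSeq starts lie 126 bases apart, gave smaller values. COL4A1 (chr13:110148963-110307233, minus strand) was called from 3 to 7 h, with 379.1 and 345.3 CPM against 247.8 and 278.5 CPM at 5 h (0.46 ± 0.10, adjusted p = 0.000612, edgeR) and 343.1 and 341.6 CPM against 209.5 and 276.7 CPM at 7 h (0.50 ± 0.10). The value at 7 h was 0.32 without EtOH replicate 1. The effect of dex on COL4A1 at 11 h lay below that at 5 h by -0.69 ± 0.19 (adjusted p = 0.0646, edgeR). COL4A2 was called higher at 3 h (0.38 ± 0.10) and lower at 9 h (-0.30 ± 0.11), with -0.03 ± 0.11 at 5 h, where its groups overlapped. The test of a dex effect that differs between times did not call COL4A2 (adjusted p = 0.534, edgeR). Its EtOH libraries alone changed over time (adjusted p = 0.0471, edgeR), and its calls were not compared under the alternatives. The difference between the chains of a pair was not tested.

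**Figure D4:**
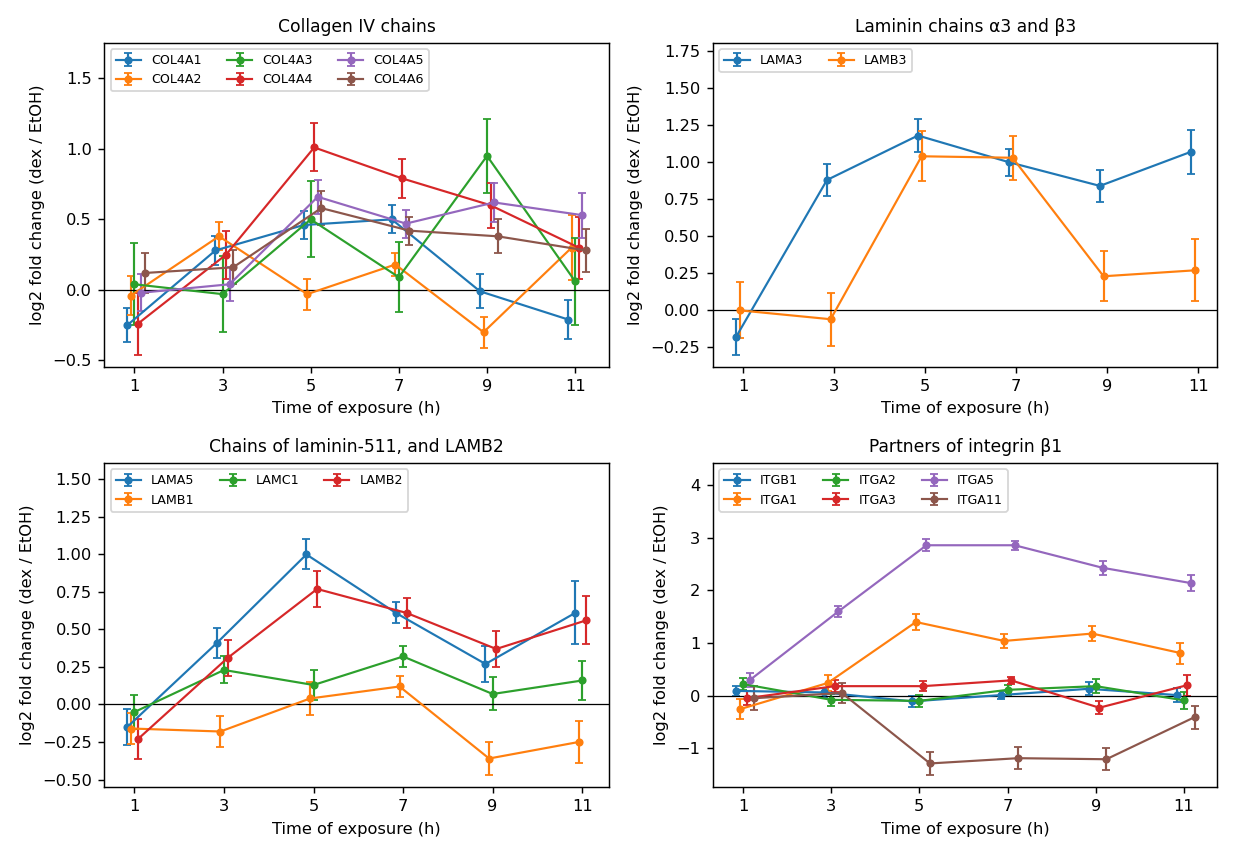
Log2 fold change of dex over EtOH (vertical axes, bars are SE) against time of exposure in hours for chains that share a complex, with 2 libraries per treatment at each time. LAMA3 stands between 0.84 and 1.18 from 5 h on, COL4A4 reaches 1.01 at 5 h, and from 5 h on ITGA5 and ITGA11 lie on opposite sides of ITGB1.

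Lower collagens were mostly of other types. COL1A1 (chr17:50183289-50201632, minus strand), the α1 chain of the main fibrillar collagen, was called higher at 3 h and lower from 5 to 9 h. It had 17.0 and 21.4 CPM with dex at 3 h against 10.5 and 15.2 CPM with EtOH, a log2 fold change of 0.57 ± 0.18 (adjusted p = 0.0388, edgeR). The value of 10.5 CPM was the lowest of the 12 EtOH libraries for COL1A1, and its call at 3 h was not compared under the alternatives. At 5 h it had 8.74 and 5.04 CPM against 14.6 and 17.0 CPM, at 7 h 8.34 and 6.99 CPM against 15.9 and 15.9 CPM, and at 9 h 6.84 and 7.85 CPM against 19.4 and 19 CPM. The groups did not overlap at these 4 times, and the last 3 log2 fold changes were -1.20 ± 0.21, -1.03 ± 0.17 and -1.35 ± 0.18 (adjusted p = 2e-05, 1.32e-05 and 0.000188, edgeR). At 11 h the dex libraries were back at 12.4 and 17.9 CPM against 16.8 and 18.4 CPM and overlapped with EtOH. COL1A1 and ITGA11 are abundant in fibroblasts. The summed level of the 5 fibroblast markers from 3 to 11 h lay between 4.09 and 6.09 CPM with EtOH (median 4.46) and between 2.1 and 5.14 CPM with dex (median 3.33). Of the 3 that were tested, THY1 was called lower at 1 time and PDGFRA and LUM at none. Their part in the values of COL1A1 and ITGA11 was not tested.

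COL27A1 (chr9:114155560-114312511, plus strand), a minor fibrillar collagen known from cartilage, was called lower from 3 to 9 h. At 7 h it had 14.8 and 15.0 CPM with dex against 41.5 and 32.3 CPM with EtOH, which gave -1.30 ± 0.13 (adjusted p = 1.9e-09, edgeR). At 3, 5 and 9 h the values lay between -0.47 and -0.45. At 11 h COL27A1 was not called, with 16.5 and 18.9 CPM with dex against 24.6 and 28.3 CPM with EtOH, without overlap. Its effect at 11 h was not called different from that at 5 h (-0.11 ± 0.22, adjusted p = 0.906, edgeR). The EtOH libraries at 7 h were the highest of the 12 EtOH libraries, whose median was 26.3 CPM, and the dex libraries at 7 h were the lowest of the 12 dex libraries. COL21A1 (chr6:56056590-56394094, minus strand), a collagen of the group associated with fibrils, fell at 5 h from 39 and 51 counts with EtOH to 14 and 11 with dex (-1.57 ± 0.34, adjusted p = 0.000425, edgeR) and at 7 h by 0.80 on the log2 scale (SE 0.30). Its effect at 11 h differed from that at 5 h by 1.53 ± 0.42 (adjusted p = 0.0648, edgeR).

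COL7A1 (chr3:48564073-48595267, minus strand), the chain of the anchoring fibrils, was called lower from 5 to 9 h, with 63.3 and 51.5 CPM at 7 h against 98.3 and 88.2 CPM (-0.68 ± 0.10, adjusted p = 1.91e-06, edgeR). COL18A1 (chr21:45405137-45513720, plus strand), the source of endostatin, was called lower at 7 h (-0.28 ± 0.09) and 9 h (-0.44 ± 0.15). Its call at 9 h was lost in 6 of 11 alternatives, among them DESeq2, and the value without EtOH replicate 2 was -0.18. Exonic bases of COL18A1 overlap SLC19A1 on the opposite strand. Of the collagen V chains, COL5A2 was called at no time (from -0.31 ± 0.12 at 9 h to -0.05 ± 0.10 at 3 h), and COL5A1 was called higher at 3 h only (0.30 ± 0.10, adjusted p = 0.0485, edgeR), a call lost in 5 of its alternatives, among them DESeq2 and 3 of the 4 libraries left out in turn. Collagen VI chain COL6A1 was called higher at 7 h only. COL26A1 and COL15A1 were called higher at 3 h on at most 18 counts per library, and COL15A1 again at 9 h, while COL11A1 was called lower at 9 h.

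**Figure D5:**
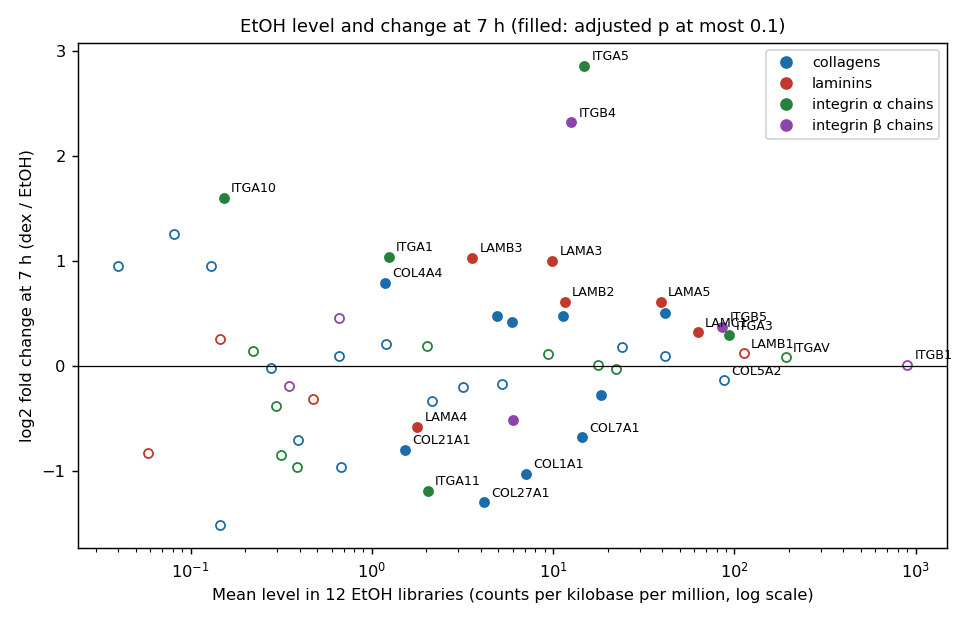
Mean level of tested collagens, laminins and integrins in the 12 EtOH libraries (horizontal axis, normalised CPM per kilobase, log scale) against their log2 fold change of dex over EtOH at 7 h (vertical axis), filled where the adjusted p was at most 0.1. ITGB1, at 900.1 per kilobase, sits near 0, while ITGA5 and ITGB4 sit above 2 at levels of 14.9 and 12.6 per kilobase.

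Of the 4 members with other products, 3 were called at 1 time or more. ITGB3BP, also known as CENPR, encodes a protein of the centromere and was called lower at 5 h (-0.69 ± 0.17, adjusted p = 0.00225, edgeR) and 7 h (-0.57 ± 0.14), with 12.1 and 10.1 CPM against 17.7 and 18.2 CPM at 5 h. The call at 5 h was lost with the most counted transcript (-0.59). Its exonic bases overlap PGM1 and EFCAB7 on the opposite strand. COL4A3BP, the ceramide transporter, was called higher at 5 and 7 h (0.33 ± 0.11 and 0.28 ± 0.09), as was ITGB1BP1, which binds the tail of the β1 chain (0.28 ± 0.10 and 0.26 ± 0.08). ITGB1BP2, a protein of muscle, was called at no time and had at most 18 counts in any library. The call of ITGB1BP1 at 5 h was lost in 5 alternatives, leaving out either dex library among them. That of COL4A3BP at 5 h was lost without EtOH replicate 1.

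Whether the effect of dex differed between time points was tested in 1 fit over the 24 libraries. It differed for 18 of the 60 members, or 30.0%, against 15.4% of all genes. ITGA5, LAMA3 and ITGA1 had the smallest adjusted p (1.42e-10, 1.22e-06 and 1.73e-05, edgeR). The effect at 11 h differed from that at 5 h for 4 of the 60 members (6.67%, against 2.91% of all genes). They were ITGA5, COL4A1, COL21A1 and LAMB3, as given above. ITGA5 and LAMB3 were above EtOH by less at 11 h, COL4A1 passed from 0.46 to -0.21, and COL21A1 from -1.57 to -0.03. This count was 0 without dex replicate 1 at 5 h or EtOH replicate 2 at 11 h, 1 without either EtOH replicate at 5 h, 2 without dex replicate 2 at 5 h or EtOH replicate 1 at 11 h, and 8 without dex replicate 1 at 11 h. The EtOH libraries alone changed over time for 2 members, or 3.33%, against 3.3% of all genes. They were COL4A2 and LAMA5 (adjusted p = 0.0471 and 0.0817, edgeR). The count for EtOH fell to 0 or 1 without any of 8 of the 12 EtOH libraries in turn and was 7 and 4 without replicate 1 and 2 at 9 h.

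Genes that process collagen or work beside the members were taken from lists written by hand. Of 28 genes of collagen processing, 22 were tested, 7 were called higher and 4 lower at 2 or more consecutive times (against 10.7% and 9.46% of all genes), and 8 at no time (against 55.6%). LOX, which crosslinks collagen and elastin, rose to 10.8 and 11.6 CPM at 5 h from 3.07 and 2.08 CPM with EtOH (2.14 ± 0.25, adjusted p = 3.72e-09, edgeR). P3H2, a prolyl hydroxylase with a preference for collagen IV, rose by 1.15 ± 0.08 at 7 h, and BMP1, which trims procollagens and laminin-332, by 0.87 ± 0.11 at 5 h. PLOD2, a lysyl hydroxylase of collagen telopeptides, was lower from 3 to 11 h, with 379.2 and 366.5 CPM at 7 h against 679.6 and 677.7 CPM (-0.86 ± 0.07, adjusted p = 1.92e-11, edgeR). LOXL2, another crosslinking enzyme, was lower from 5 to 9 h (-0.66 ± 0.11 at 9 h), and PCOLCE2, an enhancer of procollagen cleavage, at 5 and 7 h (-0.83 ± 0.18 at 5 h).

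Of 15 matrix partners, 13 were tested, and 4 were called higher and 3 lower at consecutive times, against the same 10.7% and 9.46% of all genes. NID2, which links laminin to collagen IV, stood at 29.6 and 29.8 CPM at 5 h against 7.98 and 7.83 CPM (1.91 ± 0.16, adjusted p = 6.9e-13, edgeR). The matrix protein THBS1 was the only one of these genes called at 1 h (0.47 ± 0.10, adjusted p = 0.0333, edgeR) and was called at all later times. The basement membrane proteoglycan HSPG2 was higher from 3 to 7 h (0.97 ± 0.20 at 5 h, with dex libraries at 134.1 and 85.1 CPM). SPP1, a ligand of αV integrins, was lower from 5 to 9 h (-0.97 ± 0.10 at 5 h), as was SPARC, a collagen-binding protein (-0.75 ± 0.12 at 5 h), and the netrin NTN4 was lower at 3, 7 and 9 h.

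Of 23 genes of integrin adhesion, 22 were tested, and 14 were called higher and 3 lower at consecutive times, against 10.7% and 9.46% of all genes. Their median log2 fold change was 0.38 at 7 h, against -0.0006 for all genes. TNS4 and TNS2, tensins that bind the tails of β chains, were higher from 3 to 11 h, with 1.67 ± 0.08 for TNS4 and 1.52 ± 0.12 for TNS2 at 7 h, and the adaptor LIMS2 reached 1.69 ± 0.31 at 7 h. The kinase SRC was lower from 3 to 11 h, with 36.4 and 33.1 CPM at 7 h against 90.0 and 88.2 CPM (-1.34 ± 0.10, adjusted p = 4.6e-13, edgeR). DST, which ties hemidesmosomes to keratin filaments, was lower from 7 to 11 h (-0.50 ± 0.09 at 7 h), and the kindlin FERMT1 from 3 to 7 h. PLEC and CD151 of the same list were called higher at consecutive times, with largest values of 0.87 at 5 h and 0.41 at 3 h. Of 9 other matrix receptors tested, 1 was called higher (SDC4, 0.68 ± 0.10 at 7 h) and 1 lower (SDC3, -0.36 ± 0.14 at 7 h) at consecutive times, and 5 at no time, which is near the 10.7%, 9.46% and 55.6% of all genes.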

How the data were processed

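Poly-A RNA from A549 cells was sequenced by the authors as single-end reads of 50 bases from stranded libraries, mapped with Bowtie to GENCODE v19 transcripts and counted per transcript with samtools. The submitters' processing notes name hg19 and SAMtools. The deposited values are raw counts. The placement of reads that match several transcripts, and the use of strand in counting, are not given in the sources used here. Of 119207 transcripts, 110262, holding 94.1% of counts, were joined by identifier without version to genes of GENCODE release 29 (GRCh38), whose coordinates are given. Counts were summed per gene, with all counted reads as library size. Tests used edgeR 4.0.16 (TMM, filterByExpr over 12 groups, robust quasi-likelihood F-test), each time point by itself with 2 dex and 2 EtOH libraries. The tests of differences between times used 1 fit over 24 libraries. SE is the log2 fold change over the square root of F. Scripts were tested on counts simulated for each time point with 200 genes changed. False calls made up 14.6% of calls at 3 h and 11.9% at 1 h, above the threshold of 0.1. At the other times they made up 5.59% to 9.23%. Of 2-fold changes, 72% to 90% were recovered. Replicate pairs all differed beyond sampling noise. Alternatives were DESeq2 1.42.0, its size factors, no filter, 1 fit, a replicate block, a threshold of 0.05, the most counted transcript, and leaving out each library. A crossed block at 3 h was added after the data had been seen.

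Members, gene lists and tests were chosen with earlier results of these data known. Genes named are the members called at 2 consecutive times (up to 12 in each direction), the 3 most abundant per class, their partners in a fixed list of complexes, up to 3 genes in each direction per list, the 3 glucocorticoid targets and the 4 other products. ITGA2, COL4A2, LAMA2, LAMC3, COL1A2, COL6A1, COL11A1, COL15A1 and COL26A1 were named after their values were seen, as were PLEC and CD151. A further gene named by this rule is not reported here and is left out of the plots of single genes.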

Additional observations from a re-analysis of the deposited data

Results flagged for a closer look

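The effect of dex differed between the 6 time points, by edgeR's test of the interaction with Benjamini-Hochberg adjustment, for 18 members. The adjusted p was 1.42e-10 for ITGA5, 1.22e-06 for LAMA3, 1.73e-05 for ITGA1, 4.29e-05 for ITGB4, 0.00137 for COL1A1, 0.0015 for LAMB2, 0.00155 for LAMB3, 0.00252 for ITGA11 and 0.00377 for COL27A1. It was 0.0121 for COL4A1, 0.0144 for COL4A4, 0.022 for COL4A5, 0.0264 for ITGB3BP, 0.0374 for COL21A1, 0.0473 for LAMA5, 0.0687 for ITGA10, 0.0983 for COL11A1 and 0.0984 for COL6A1. The last 3 lie above 0.05. For COL1A1 the sign of the call itself changed, from higher at 3 h to lower from 5 to 9 h. The call at 3 h was not compared under the alternatives.

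The effect at 11 h differed from that at 5 h, in the same fit, for ITGA5 (adjusted p = 0.0174, edgeR), COL4A1 (0.0646), COL21A1 (0.0648) and LAMB3 (0.0946). The dex libraries at 11 h were the pair with the largest spread, and the number of members with such a difference was 8 without dex replicate 1 and 3 without dex replicate 2 at that time.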

How the results depend on the processing

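The count of members called higher at consecutive times stayed between 12 and 16 under every alternative, and the counts at 5 and 7 h and of effects that differ between times stayed within 1.5 times the value given. The others moved. At 1 h the replicate block gave 1 member (1.67%, against 3.8% of all genes), and some were called without dex replicate 2. At 3 h, DESeq2 gave 5, the fit over 24 libraries 10 (against 11.1% of all genes), a threshold of 0.05 11 (against 10.5%), the most counted transcript 10 (against 11.4%) and leaving out a library 7 to 15. At 9 h, DESeq2 gave 11 and leaving out a library 8 to 29. At 11 h the fit over 24 libraries gave 14 (against 16.2% of all genes), the replicate block 11 (against 11.7%) and leaving out a library 4 to 28. Lower at consecutive times were 4 with DESeq2, 4 with the most counted transcript and 4 to 8 with a library left out. An effect at 11 h unlike that at 5 h was found for 2 with DESeq2, 1 at 0.05, 2 with the most counted transcript and 0 to 8 with a library left out. A change over time in EtOH was found for 8 without the filter, 1 at 0.05, 1 with the most counted transcript and 0 to 7 with a library left out. The cause of these moves was not tested, except that a threshold of 0.05 is stricter by construction. Shares of all genes under the alternatives are not given for lower calls at consecutive times, 11 h against 5 h or EtOH over time. Those moves can therefore not be set against the background. With a library left out, the lone library was assumed to vary like the other group.

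The replicate numbers were not taken to pair the libraries, since the labels tie them to no shared culture and the correlations were not above 0.1 at every time. The correlation of same-numbered deviations was 0.23, -0.122, 0.0293, 0.00324, 0.145 and -0.00832 from the first time to the last. The block called 30 members at 9 h, or 50%, against 28.6% of all genes. At 3 h the crossed block gave 20 members, or 33.3%, against 23.5% of all genes, where 14.1% were called without a block. The replicate block ended the call of COL5A1 at 3 h (adjusted p = 0.123, edgeR). The 31 called members named by the fixed rule were compared at their largest called time under up to 12 alternatives. Members named after their values were seen were not. Over all these comparisons none reversed the direction, 309 kept the call and 32 lost it. LAMB4 had no adjusted p by DESeq2 and was not tested with the most counted transcript, so neither is among them.

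The 26 untested members had at most 11 counts in a library, so no difference was tested for them at this depth, and calls of members with few counts, such as LAMB4, rest on those few reads.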
